A study of Mus musculus with 40 samples.

Results

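The nuclear genes for the subunits of the mitochondrial respiratory chain and ATP synthase, with cytochrome c, were examined in RNA-seq counts from the mouse hippocampus. Members were taken by symbol (Nduf genes other than the Ndufaf assembly factors, Uqcr, Cox4 to Cox8, Atp5, Sdha, Sdhb, Sdhc, Sdhd, Cyc1 and Cycs, without pseudogene symbols), with at least 20 counts summed over all mice. The symbols matched 92 genes, and 91 of them were among the 28449 genes tested of 40853 in the table. The gene left out was Cox8c. Of the 91, 41 belonged to complex I, 4 to complex II, 9 to complex III, 19 to complex IV and 17 to complex V (ATP synthase), and 1 encoded cytochrome c.

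The study asked how removing the histone variant H2A.Z from neurons, and giving back H2A.Z.1 in forms that mimic or lack acetylation, affects hippocampal gene expression. The 40 mice (18 female, 22 male) had loxP sites in both H2A.Z genes by the study's methods, although the labels give the genotype of the Myc mice as WT, and each received virus by stereotaxic injection into the hippocampus. Myc controls received virus for the 3xMyc tag without Cre (3 females, 4 males). KO mice received Cre driven by the neuronal Synapsin promoter together with the 3xMyc virus (4 females, 4 males), and the labels call them H2A.Z.1/H2A.Z.2 KD. The replacement groups received Cre with 3xMyc-H2A.Z.1, expressed from a CMV promoter: WT, the unchanged protein (4 females, 5 males), KA, in which acetylatable lysines were changed to alanine (4 females, 4 males), and KQ, in which they were changed to glutamine (3 females, 5 males). Ages and strain were not given in the sources used here. Cre acted in infected neurons whereas RNA came from whole hippocampal tissue, so each value is a sum over all cell types.

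Complexes I, III and IV pass electrons from NADH to oxygen and pump protons across the inner mitochondrial membrane, complex II feeds electrons in from succinate without pumping, cytochrome c carries electrons from complex III to complex IV, and complex V uses the proton gradient to make ATP. Most of their subunits are encoded in the nucleus and imported, whereas a small core set is encoded by mitochondrial DNA. Neurons depend heavily on this pathway, and several complex IV subunits exist as a widely expressed form and a form typical of heart and skeletal muscle, testis or lung.

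Libraries held 24342921 to 45982772 counts per mouse. Neither targeted gene was lower at adjusted p under 0.05 in mice labelled KO. H2az1 was at 28.1 to 36.3 CPM (counts scaled to a common library size) in KO females and 28.1 to 34.5 CPM in Myc females. In males it was at 17.7 to 37.6 CPM in KO and 27.0 to 37.2 CPM in Myc. By edgeR's quasi-likelihood test, its log2 fold change was -0.06 ± 0.17 (SE, adjusted p = 0.828) in females and -0.05 ± 0.16 (adjusted p = 0.841) in males. H2az2 was at 0.28 ± 0.12 (adjusted p = 0.0609) and 0.14 ± 0.11 (adjusted p = 0.350). All KO females (26.2 to 30.0 CPM) lay above all Myc females (19.4 to 26.0 CPM) in H2az2, whereas the males overlapped. With replacement, H2az1 was at 32.7 to 47.7 (WT), 34.6 to 49.5 (KA) and 38.0 to 48.3 CPM (KQ) in females. In males it was at 35.5 to 45.2, 40.1 to 43.8 and 33.1 to 50.1 CPM. Counts were summed over whole genes and all cells, so the deleted part of each gene was not seen apart, and the KO labels were neither checked nor contradicted by them. The study itself reports that Cre without replacement lowered mRNA of both genes to a small degree in tissue. It also reports a robust loss of H2A.Z in cultured neurons given Cre. Cell type markers moved with the KO label. The 7 neuron markers summed to 7946 to 8219 CPM in Myc females and 3338 to 5707 CPM in KO females, and to 7703 to 8258 CPM and 3912 to 6495 CPM in males; 7 of 7 were lower at adjusted p under 0.05 in females and 5 of 7 in males. The 6 microglia markers, all called higher in both sexes, summed to 235 to 346 CPM in Myc females and 859 to 1469 CPM in KO females, and to 223 to 291 CPM and 965 to 1689 CPM in males. Markers of astrocytes (4 of 4) and T cells (3 of 3) were also higher in both sexes. The part of these markers in the results on subunits was not tested, and fewer neurons and less RNA per neuron cannot be told apart in whole tissue.

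Widely expressed subunits dominated the hippocampal pool. Per kilobase of the main transcript, the beta subunit of ATP synthase, Atp5b, stood at 607 ± 89.5 CPM (SD, n = 3 Myc females), Cox8a at 484 ± 89.5, Cox4i1 at 390 ± 70.7, Cox6c at 327 ± 55.6, Cox6a1 at 303 ± 56.5 and Ndufa4 at 292 ± 52.1. The ranges over the 3 Myc females overlapped between each pair of neighbours in this order. Members without a matched transcript could not be placed on this scale. Among them was Atp5a1, with 1084996 counts over all mice against 1516256 for Atp5b. The tissue-restricted forms were far lower on the same scale: Cox6a2 at 5.87 ± 1.43, Ndufa4l2 at 2.55 ± 0.34, Cox6b2 at 2.13 ± 0.14, Cox4i2, the form typical of lung, at 1.16 ± 0.26, Cox7a1 at 0.54 ± 0.32, Cox7b2 at 0.083 ± 0.060 and Cox8b at 0.049 ± 0.046. In the 4 Myc males the same restricted forms were at 5.66 ± 0.64 (Cox6a2), 2.21 ± 0.27 (Ndufa4l2) and 2.06 ± 0.54 (Cox6b2) CPM per kilobase. Exons of another gene overlapped part of Cox8b and Ndufa4l2 on the opposite strand, over 57.3% and 75.2% of their bases, and whether counting used strand is not given in the sources used here, so their reads may include those of the neighbour.

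Between mice labelled KO and Myc controls, a minority of subunits were lower in KO and a few were higher, among them low-level isoforms. The small negative shift over all members rested largely on single libraries. In females 17 of 91 members passed the test as lower (18.7%, against 16.5% of all genes tested) and 5 as higher (5.49%, against 18.1%). In males 11 were lower (12.1%, against 14.4%) and 3 higher (3.30%, against 17.2%). Thus the share called lower was near that of all genes, and the share called higher was below it. The log2 fold change was negative for 75 of 91 members in females, with a median of -0.19 (0.00 over all genes), and for 77 in males, with a median of -0.18 (0.03 over all genes). Without Myc mouse 31 the female median was -0.070, with 56 of 91 negative. Without KO mouse 42 the male median was -0.058, with 60 of 91 negative, and without Myc mouse 22 it was -0.077, with 66 negative. Without Myc mouse 32 the female median was -0.30, and without KO mouse 3 the male median was -0.25. The mean log2 level of the members put all KO females (-0.21 to -0.01 relative to the Myc mean) within the range of the Myc females, and KO males at 0.04, -0.08, 0.01 and -0.62, the last being mouse 42. DESeq2 size factors moved the medians to -0.18 and -0.16. Of the calls, 10 lower and 3 higher members were shared by the sexes: Ndufs1, Ndufb3, Ndufa10, Ndufa9, Ndufs8, Uqcrc2, Uqcrfs1, Ndufa4, Cox8a and Cox6a1 were lower, and Cox6b2, Cox6a2 and Atp5g2 were higher. The share of all genes called in both sexes was not counted, so this overlap cannot be called particular to the members. The study reports that most genes changed by the deletion were shared between females and males. The Myc mice with the highest mean level of the members, mouse 31 in females (0.23 above the mean of the Myc females on the log2 scale) and mouse 22 in males (0.24), decided many of the calls. Without Myc mouse 31 the females had 7 calls (3 lower), without KO mouse 13 also 7 (5 lower) and without KO mouse 14 they had 11. Without Myc mouse 22 the males had 7 calls (3 lower), and without KO mouse 4 or KO mouse 42 they had 9. When only the KO and Myc mice of a sex were fitted, 11 calls were left in females and 9 in males, and 9 were left in females once the 4 mice with over 1000 CPM of the choroid plexus gene Ttr were dropped from the fit. Calls that held under every alternative were those of Ndufs1, Ndufb3 and Cox6b2 in both sexes, Ndufa10 in females, and Uqcrc2 and Cox6a2 in males.

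**Figure D1:**
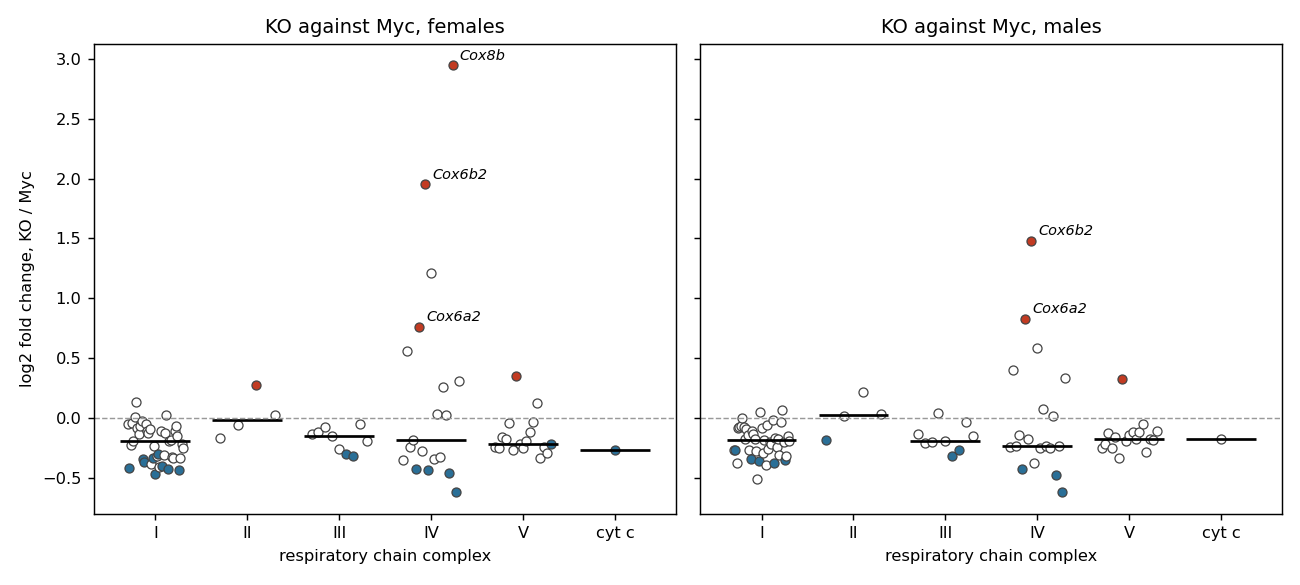
Log2 fold change (vertical axis) between KO and Myc mice for each of the 91 members, by complex (horizontal axis), in females (left) and males (right). Each circle is a gene, filled blue or red where the adjusted p is under 0.05 for a lower or higher level in KO, and black lines are medians of each complex. Most circles lie just below 0, while Cox6b2 and Cox6a2 lie above in both panels and Cox8b in females.

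By complex, most of the lower calls fell in complexes I, III and IV, which also hold most of the members, so their number alone sets no complex apart. Of all genes tested, 16.5% were called lower in females and 14.4% in males. In females 9 of 41 complex I members (22.0%), 2 of 9 in complex III (22.2%), 4 of 19 in complex IV (21.1%) and 1 of 17 in complex V (5.88%) were lower, and none of 4 in complex II. In males the counts were 5 of 41 (12.2%), 2 of 9 (22.2%), 3 of 19 (15.8%), 0 of 17 and 1 of 4. The median log2 fold changes in females were -0.19 for complex I, -0.15 for III, -0.18 for IV and -0.22 for V, and -0.02 for II. Without Myc mouse 31 they were -0.093, -0.060, -0.059 and -0.078, and 0.13 for II. Without Myc mouse 32 they were -0.32, -0.30, -0.27 and -0.33, and -0.16 for II. In males they were -0.19, -0.20, -0.23 and -0.17, and 0.02 for II. Without KO mouse 42 the male values were -0.074, -0.033, -0.051 and -0.061, and 0.16 for II, and without Myc mouse 22 they were -0.094, -0.069, -0.077 and -0.045, and 0.12 for II. Without KO mouse 3 they were -0.27, -0.23, -0.26 and -0.25, and -0.026 for II. The medians of all complexes thus moved with these mice, and the difference between complexes was not tested.

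In complex I the change was clearest in Ndufs1, the large iron-sulfur core subunit that receives electrons near the NADH site. Ndufs1 was at 158, 191 and 160 CPM in Myc females and at 117, 119, 133 and 134 CPM in KO females. Every KO female lay below every Myc female, and the log2 fold change was -0.43 ± 0.08 (adjusted p = 8.06e-05). Myc males were at 166, 178, 170 and 166 CPM and KO males at 139, 122, 139 and 123 CPM, again without overlap, with a log2 fold change of -0.38 ± 0.08 (adjusted p = 0.000163). Ndufb3, an accessory subunit of the membrane arm, was at 55.7, 63.1 and 56.0 CPM in Myc females against 44.2, 44.6, 47.7 and 48.5 CPM in KO females (log2 fold change -0.33 ± 0.09, adjusted p = 0.00309). In males it was at 55.3, 66.7, 55.2 and 58.4 CPM against 52.7, 43.0, 47.7 and 39.5 CPM (-0.36 ± 0.08, adjusted p = 0.000632), and the groups did not overlap in either sex. Ndufa10, another accessory subunit of the membrane arm, was at 152, 192 and 145 CPM in Myc females and 109, 118, 126 and 135 CPM in KO females (-0.42 ± 0.10, adjusted p = 0.00145). In males it overlapped between groups, with KO mouse 21 at 141 CPM beside Myc mouse 1 at 140 CPM (-0.27 ± 0.10, adjusted p = 0.0288).

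Among the other members of complex I, Ndufs8, an iron-sulfur core subunit, fell by 0.44 ± 0.13 on the log2 scale in females (adjusted p = 0.00621) and by 0.35 ± 0.12 in males (adjusted p = 0.0198), and its groups did not overlap in either sex. Ndufa9, an accessory subunit of the matrix arm, fell by 0.37 ± 0.12 and 0.34 ± 0.11 (adjusted p = 0.0157 and 0.0181), with overlap in both sexes. In females Ndufb5, Ndufb8 and Ndufa8, all accessory subunits, were also lower, at -0.30, -0.40 and -0.34, as was Ndufb4b at -0.47. Ndufb4b is a copy related to Ndufb4 (11482 against 4726 counts over all mice), and reads may be split between them. Exons of another gene on the same strand covered 68.6% of the Ndufb8 transcript. No complex I member was called higher in either sex, and the log2 fold changes ran from -0.47 to 0.13 in females and from -0.51 to 0.06 in males. The member at -0.51 was Ndufb2, which did not pass in males (adjusted p = 0.0694) except without KO mouse 21 (0.0437). These calls leaned on few libraries. Without Myc mouse 31, the calls of Ndufs8, Ndufa9, Ndufb5, Ndufb8, Ndufa8 and Ndufb4b in females ended, at adjusted p = 0.132 for Ndufs8 and 0.251 for Ndufb5. Without KO mouse 13 those of Ndufa8, Ndufb4b, Ndufb5 and Ndufb8 ended, and without KO mouse 14 or Myc mouse 11 those of Ndufa8 and Ndufb4b. In males the calls of Ndufa10, Ndufa9 and Ndufs8 ended without Myc mouse 22 (adjusted p = 0.202, 0.120 and 0.0974), those of Ndufa9 and Ndufs8 without KO mouse 42 (0.0692 and 0.108) and that of Ndufa10 without KO mouse 4 (0.150).

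**Figure D2:**
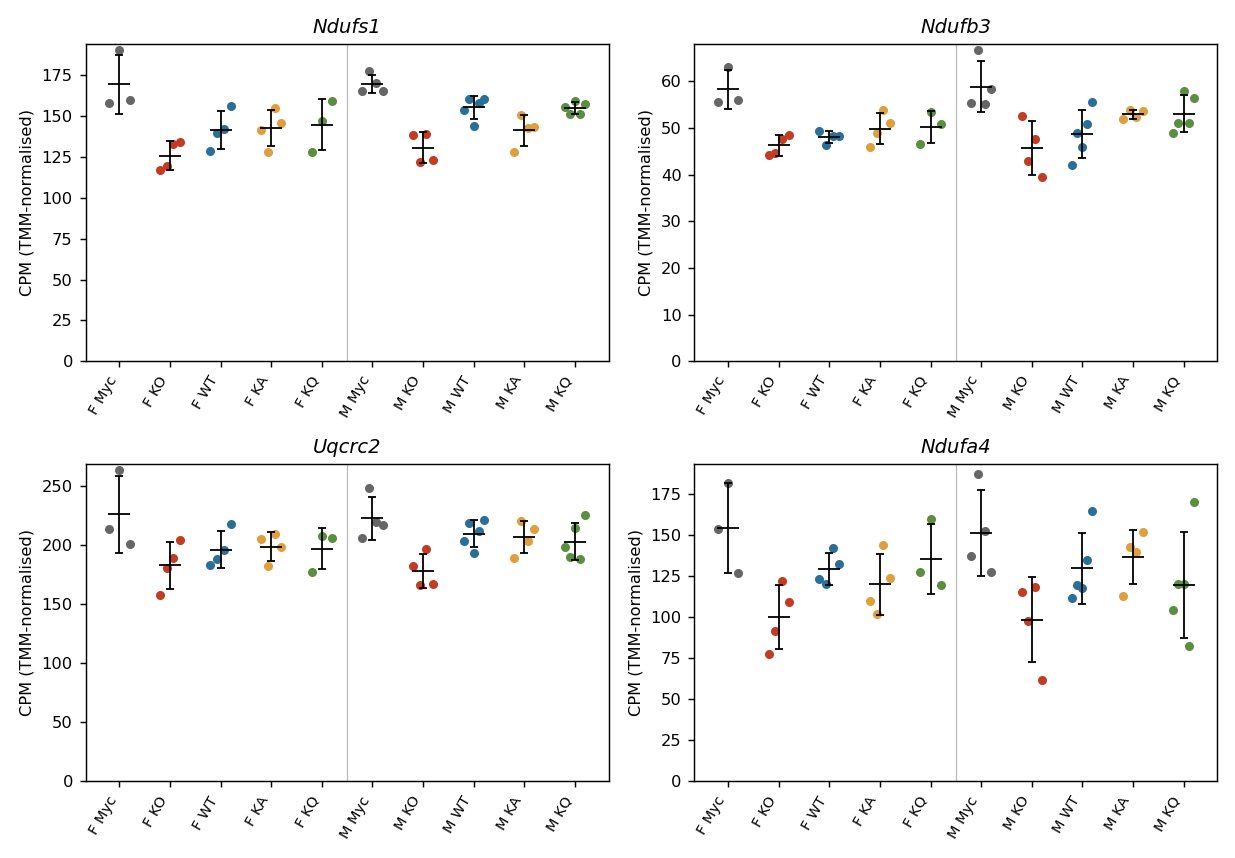
Level of Ndufs1, Ndufb3, Uqcrc2 and Ndufa4 in each mouse, in CPM on the vertical axis, by sex (F, M) and virus on the horizontal axis. Dots are mice, long dashes are means and bars are SDs. The KO mice of Ndufs1 and Ndufb3 lie below all Myc mice of their sex, and those of Uqcrc2 do so in males.

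Complex II went both ways. Sdha, the flavoprotein that oxidises succinate, was at 397, 414, 404 and 393 CPM in Myc males and 374, 312, 365 and 362 CPM in KO males. The groups did not overlap, and the log2 fold change was -0.19 ± 0.07 (adjusted p = 0.0381). In females Sdha did not pass (-0.17 ± 0.08, adjusted p = 0.0861) except without Myc mouse 32 (0.0428). Sdhc, one of the membrane anchors, was higher in KO females, at 69.6, 71.1, 65.0 and 66.6 CPM against 58.7, 62.9 and 47.2 CPM (0.27 ± 0.10, adjusted p = 0.0235), and in males it was at 0.22 ± 0.09 (adjusted p = 0.0532), passing without KO mouse 42 or Myc mouse 22 (0.0144 and 0.0154). The iron-sulfur subunit Sdhb (-0.06 ± 0.14 in females, 0.01 ± 0.13 in males) and the anchor Sdhd (0.03 ± 0.15 and 0.03 ± 0.14) lay near 0. The Sdhc call ended without KO mouse 13, KO mouse 14 or Myc mouse 32 (adjusted p = 0.0513, 0.0611 and 0.239), and the Sdha call in males without KO mouse 4 or Myc mouse 1, 22 or 23 (adjusted p from 0.0557 to 0.187). Cycs, which encodes somatic cytochrome c, was at 147, 180 and 143 CPM in Myc females and 112, 121, 142 and 145 CPM in KO females (-0.27 ± 0.10, adjusted p = 0.0334). Its groups overlapped, the call ended without KO mouse 13, KO mouse 14 or Myc mouse 31 (adjusted p = 0.139, 0.0975 and 0.285), and males were at -0.17 ± 0.09 (adjusted p = 0.162).

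In complex III, Uqcrc2, a matrix-facing core protein, was lower in both sexes. It was at 206, 248, 219 and 217 CPM in Myc males and 182, 166, 197 and 167 CPM in KO males, with no overlap (-0.32 ± 0.09, adjusted p = 0.00455). In females it was at 213, 263 and 201 CPM against 157, 180, 189 and 204 CPM, where KO mouse 34 exceeded Myc mouse 32 (-0.31 ± 0.10, adjusted p = 0.0111). Uqcrfs1, the Rieske iron-sulfur protein, fell by 0.32 ± 0.11 in females (adjusted p = 0.0200) and by 0.27 ± 0.10 in males (adjusted p = 0.0399), with overlap in both. Uqcrc1, the other core protein, did not pass (-0.26 ± 0.12, adjusted p = 0.0837 in females; -0.20 ± 0.11, adjusted p = 0.172 in males), although it passed in females without Myc mouse 32 (0.0448). In females the Uqcrc2 call ended without KO mouse 13 or Myc mouse 31 (adjusted p = 0.0618 and 0.180), and the Uqcrfs1 call without any of KO mice 13 and 14 and Myc mice 11 and 31 (0.0560 to 0.143). In males the Uqcrfs1 call ended without any of KO mice 4 and 42 and Myc mice 22 and 23 (0.0798 to 0.207).

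Complex IV held both the lowest and the highest fold changes. Ndufa4, first assigned to complex I and now counted with complex IV, was at 154, 182 and 127 CPM in Myc females and 77.6, 91.7, 122 and 109 CPM in KO females (-0.62 ± 0.20, adjusted p = 0.0139). Myc males were at 138, 187, 153 and 128 CPM and KO males at 116, 97.7, 118 and 62.1 CPM (-0.62 ± 0.19, adjusted p = 0.00962). The groups did not overlap in either sex, and KO mouse 42 was the lowest male. Cox8a, the widely expressed form of a small membrane subunit, was at 255, 330 and 234 CPM in Myc females against 173, 201, 214 and 203 CPM in KO females (-0.46 ± 0.16, adjusted p = 0.0249). In males it was at 256, 311, 262 and 243 CPM against 222, 181, 245 and 121 CPM (-0.48 ± 0.15, adjusted p = 0.0136), with KO mouse 21 just above Myc mouse 41. Cox6a1, the widely expressed form of subunit VIa, fell by 0.43 ± 0.16 in females and 0.43 ± 0.15 in males (adjusted p = 0.0395 and 0.0293), and Cox6c by 0.44 ± 0.17 in females (adjusted p = 0.0408). Without Myc mouse 31 the female calls of all 4 ended (adjusted p from 0.0978 for Ndufa4 to 0.261 for Cox6a1), and without KO mouse 13 likewise (0.0621 for Ndufa4 to 0.118 for Cox6a1). Those of Cox6a1 and Cox6c also ended without KO mouse 14 or Myc mouse 11, and that of Cox6c without KO mouse 33. In males the calls of Ndufa4, Cox8a and Cox6a1 ended without KO mouse 42 (0.0539, 0.0872 and 0.123) or Myc mouse 22 (0.0526, 0.0623 and 0.124), and that of Cox6a1 also without KO mouse 4 or Myc mouse 23. Of the other forms, Cox4i1 (-0.35 ± 0.15 in females, adjusted p = 0.0754), Cox6b1 (-0.28 ± 0.15), Cox7a2 (-0.35 ± 0.20) and Cox7b (-0.33 ± 0.14) did not pass in females, although without Myc mouse 32 Cox4i1 and Cox7b passed (0.0372 and 0.0217), as did Cox7b without KO mouse 33 (0.0401). Cox7a2l, which takes part in joining complexes into supercomplexes, was at 0.03 ± 0.11.

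The tissue-restricted complex IV forms Cox6b2 and Cox6a2 were called higher in KO in both sexes, and Cox8b in females alone, where the call rested on few mice. The difference in the Cox8b response between the sexes did not pass its test, which is given further on. Their widely expressed partners Cox6a1 and Cox8a were called lower in both sexes, and Cox6b1 did not pass in either sex. Promoters of the partners with a RefSeq entry are shown for subunits VIb and VIII, on the minus strand of GRCm38.p6, 300 bases from 250 before to 50 after the start: Cox6b1 (chr7:30626065-30626364), Cox6b2 (chr7:4753045-4753344), Cox8a (chr19:7217567-7217866) and Cox8b (chr7:140900397-140900696). Capitals mark matches to CCGGAAG, the core bound by ETS factors such as the respiratory gene activator GABP, or to TATAAA, the letters of the TATA box, on either strand.
Cox6b1: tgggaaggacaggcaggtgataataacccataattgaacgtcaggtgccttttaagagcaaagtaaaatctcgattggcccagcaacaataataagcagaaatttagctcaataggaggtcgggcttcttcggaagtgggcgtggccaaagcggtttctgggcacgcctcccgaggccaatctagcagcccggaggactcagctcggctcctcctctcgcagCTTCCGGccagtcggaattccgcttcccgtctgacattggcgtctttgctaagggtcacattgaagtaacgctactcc
Cox6b2: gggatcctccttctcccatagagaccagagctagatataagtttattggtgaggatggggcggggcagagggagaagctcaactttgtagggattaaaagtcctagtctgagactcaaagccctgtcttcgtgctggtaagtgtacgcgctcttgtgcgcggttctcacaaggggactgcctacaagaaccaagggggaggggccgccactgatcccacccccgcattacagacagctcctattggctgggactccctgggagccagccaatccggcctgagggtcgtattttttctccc
Cox8a: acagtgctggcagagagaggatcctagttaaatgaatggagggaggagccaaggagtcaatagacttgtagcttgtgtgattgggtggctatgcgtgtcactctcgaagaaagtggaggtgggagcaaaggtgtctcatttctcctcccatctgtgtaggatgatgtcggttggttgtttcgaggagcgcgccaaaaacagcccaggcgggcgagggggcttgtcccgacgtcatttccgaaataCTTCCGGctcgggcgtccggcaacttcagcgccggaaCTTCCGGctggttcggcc
Cox8b: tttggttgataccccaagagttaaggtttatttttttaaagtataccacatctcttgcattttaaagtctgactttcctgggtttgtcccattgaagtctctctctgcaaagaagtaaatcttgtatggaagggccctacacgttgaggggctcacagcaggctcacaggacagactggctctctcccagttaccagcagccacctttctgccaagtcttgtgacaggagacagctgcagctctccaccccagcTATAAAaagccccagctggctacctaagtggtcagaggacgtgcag
The widely expressed forms Cox6b1 and Cox8a each hold the ETS letters, 1 time in Cox6b1 and 2 times in Cox8a, while Cox8b holds the letters TATAAA at bases 5 to 10 after the annotated start, and Cox6b2 holds neither. Over the 77 windows of 72 members with an entry, 22.1% held CCGGAAG against 8.86% of all 32851 promoter windows, 23.4% held the NRF1 letters (GCGCA, any base, then GCGC) against 4.6%, 6.49% held the CRE letters TGACGTCA against 1.79%, and 11.7% held TATAAA against 13.6%. A match describes the letters only.

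Cox6b2, the testis form of subunit VIb, was at 1.4, 1.23 and 1.23 CPM in Myc females and 5.55, 6.31, 4.16 and 3.84 CPM in KO females. Myc males were at 1.28, 1.68, 1.03 and 0.96 CPM and KO males at 3.70, 6.0, 2.20 and 1.86 CPM. Every KO mouse exceeded every Myc mouse of its sex, the lowest being KO mouse 42, and the log2 fold changes were 1.95 ± 0.42 (adjusted p = 0.000389) and 1.48 ± 0.37 (adjusted p = 0.00214). The same values are given by range of the sample number, where the groups are apart by necessity, so this adds no support. Among females numbered 1 to 20, Myc mouse 11 was at 1.4 CPM and KO mice 13 and 14 at 5.55 and 6.31. Among those numbered 21 to 40, Myc mice were at 1.23 and 1.23 CPM and KO mice at 4.16 and 3.84. Among males, Myc mouse 1 was at 1.28 CPM against 3.70 and 6.0 in KO mice 3 and 4, Myc mice 22 and 23 at 1.68 and 1.03 against 2.20 in KO mouse 21, and Myc mouse 41 at 0.96 against 1.86 in KO mouse 42. Relative to Cox6b1 on the CPM scale, Cox6b2 was 0.91% ± 0.14 in Myc females and 4.29% ± 1.29 in KO females, and 0.92% ± 0.14 and 2.94% ± 1.58 in males, so it stayed a small fraction of its partner. Of the testis markers Prm1 and Tnp1, Prm1 was tested: it was at 0 to 0.26 CPM in KO males and at most 0.054 CPM in KO females, and did not pass in either sex (adjusted p = 0.776 in females and 0.0827 in males).

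Cox6a2, the heart and skeletal muscle form of subunit VIa, was at 4.02, 4.38, 3.52 and 3.47 CPM in Myc males and 8.65, 8.37, 5.12 and 5.14 CPM in KO males, without overlap (0.83 ± 0.24, adjusted p = 0.00767). In females it was at 2.95, 4.86 and 4.17 CPM against 8.38, 9.10, 5.12 and 4.33 CPM, where KO mouse 34 lay within the Myc range (0.76 ± 0.27, adjusted p = 0.0241). Among females numbered 1 to 20 the groups were apart (Myc mouse 11 at 2.95 CPM, KO mice 13 and 14 at 8.38 and 9.10), whereas among those numbered 21 to 40 they overlapped (Myc at 4.86 and 4.17, KO at 5.12 and 4.33). The female call ended without KO mouse 13 or 14 or Myc mouse 11 or 32 (adjusted p from 0.0507 to 0.149), whereas the male call was kept. Relative to Cox6a1 it was 2.34% ± 0.57 in Myc and 5.35% ± 2.13 in KO females, and 2.18% ± 0.27 and 5.29% ± 1.62 in males. Of the 4 muscle markers (Acta2, Myh11, Ckm and Myh4), Acta2 and Myh11, of smooth muscle, were higher in females and none passed in males. The 4 summed to 24.4 to 30.1 CPM in Myc females and 31.7 to 92.8 CPM in KO females, and to 19.1 to 99.5 CPM and 32.1 to 84.5 CPM in males, while Ckm, of striated muscle, was at 0 to 0.14 CPM in all of these mice. In both sexes the 2 KO mice highest in Cox6a2 and Cox6b2 (mice 13 and 14, and mice 3 and 4) were also the 2 with the lowest sums of neuron markers, at 3338, 3858, 5251 and 3912 CPM. The part of this in the result was not tested.

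Cox8b, the form of subunit VIII found in heart, skeletal muscle and brown fat, was at 0.12, 0.20 and 0 CPM in Myc females and 0.38, 2.05, 0.89 and 0.11 CPM in KO females, or 5, 5 and 0 reads against 14, 92, 29 and 4 reads. The fitted log2 fold change was 2.95 ± 0.91 (adjusted p = 0.0108), with overlap between groups. Mice 14 and 33, the KO females with most Cox8b, were those with most of the choroid plexus markers (summed to 3791 and 2752 CPM, against 55.1 and 101 CPM in the other KO females). Once mice with over 1000 CPM of Ttr were dropped, the value was 1.14 (adjusted p = 0.353), and without KO mouse 14 or Myc mouse 32 the call ended too (0.0907 and 0.0576). In males Cox8b was at 0.10 to 0.45 CPM in Myc and 0.05 to 0.38 CPM in KO (-0.24 ± 0.79, adjusted p = 0.862). The remaining restricted forms did not pass: Cox4i2 was at 0.56 ± 0.29 in females and 0.40 ± 0.26 in males, Cox7a1 at 1.21 ± 0.56 and 0.58 ± 0.49, Ndufa4l2 at 0.30 ± 0.23 and 0.33 ± 0.21, and Cox7b2 at 0.26 ± 0.69 and -0.25 ± 0.58. Without Myc mouse 32, Cox7a1 in females passed (adjusted p = 0.0477), and without KO mouse 34, Cox4i2 in females passed (0.0297).

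**Figure D3:**
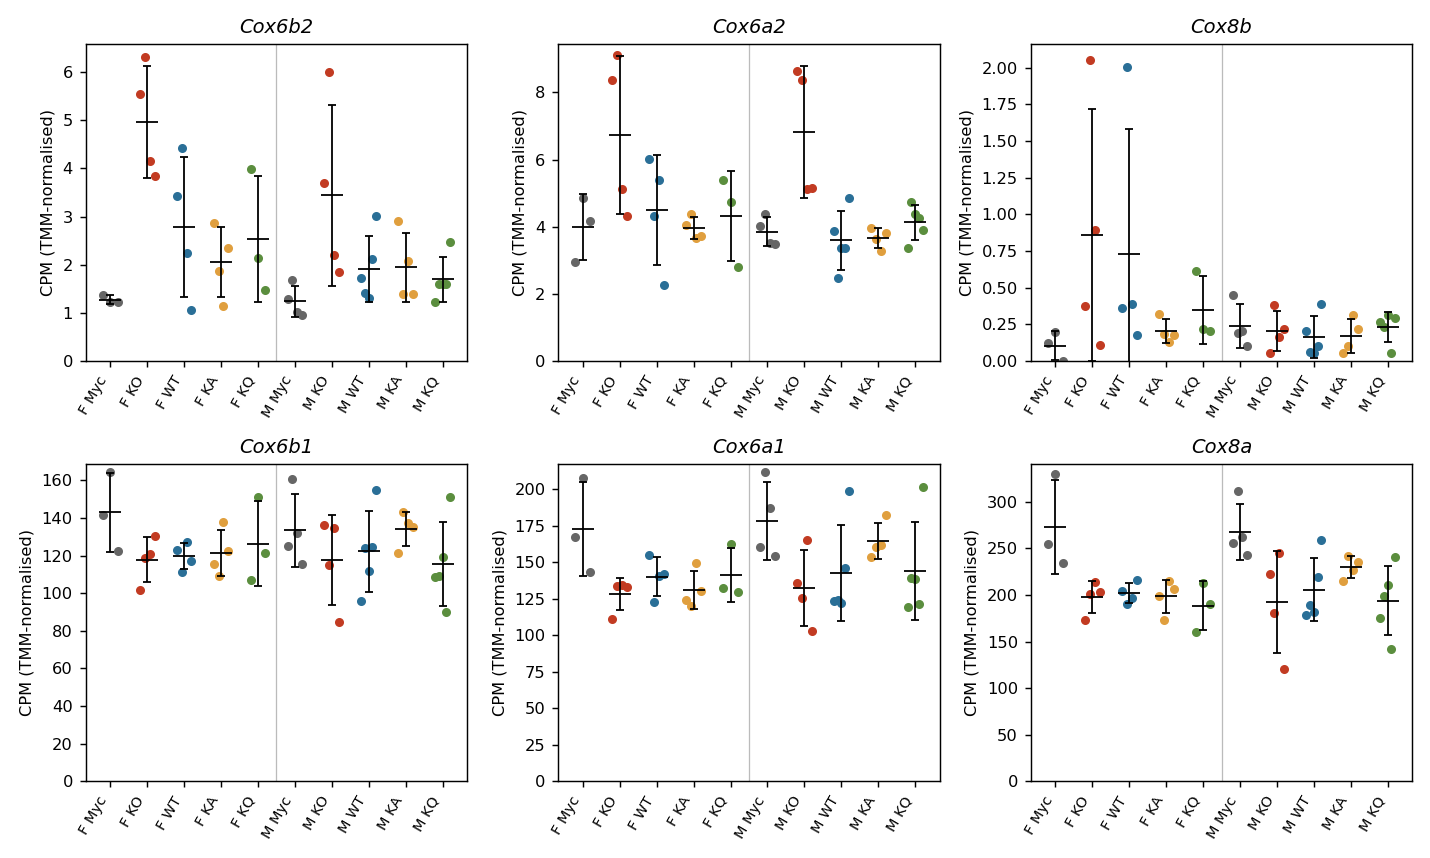
Level in each mouse, in CPM on the vertical axis, of the restricted forms Cox6b2, Cox6a2 and Cox8b (top) and of their widely expressed partners Cox6b1, Cox6a1 and Cox8a (bottom), by sex (F, M) and virus on the horizontal axis. Dots are mice, long dashes are means and bars are SDs, which are cut at 0. Cox6b2 is higher in every KO mouse than in any Myc mouse of its sex, and the high Cox8b values are single females of the KO and WT groups.

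Among the 17 complex V members, Atp5g2 was the one called in both sexes. Atp5g1, Atp5g2 and Atp5g3 encode the same mature c subunit of the rotor ring with different import sequences, and each has near-identical copies in the genome, so their reads may be split. Atp5g2 was at 12.7, 11.0 and 10.5 CPM in Myc females and 15.3, 15.1, 14.8 and 12.8 CPM in KO females, and at 12.4, 12.6, 11.7 and 10.8 CPM in Myc males and 14.6, 16.2, 14.0 and 14.7 CPM in KO males. The groups did not overlap, and the log2 fold changes were 0.35 ± 0.12 (adjusted p = 0.0241) and 0.32 ± 0.11 (adjusted p = 0.0242). Atp5g1 (-0.27 ± 0.21 and -0.34 ± 0.20) and Atp5g3 (-0.22 ± 0.22 and -0.19 ± 0.20) did not pass. Atp5g2 relative to Atp5g3 was 11.0% ± 3.06 in Myc and 15.7% ± 2.71 in KO females, and 11.9% ± 2.00 and 17.0% ± 3.90 in males. Atp5pb, subunit b of the peripheral stalk, was lower in KO females (-0.22 ± 0.08, adjusted p = 0.0347) and at -0.11 ± 0.08 in males. The catalytic subunits Atp5a1 (-0.24 ± 0.11 and -0.25 ± 0.10) and Atp5b (-0.25 ± 0.12 and -0.22 ± 0.11) did not pass in either sex. The Atp5g2 call ended in females without KO mouse 13 or 14 or Myc mouse 31 or 32 (adjusted p from 0.0565 to 0.114), and in males without KO mouse 4 or Myc mouse 23 or 41 (0.0516 to 0.0859). That of Atp5pb ended without KO mouse 13 or 14 or Myc mouse 31 or 32 (0.0541 to 0.171), and Atp5a1 passed in females without KO mouse 34 or Myc mouse 32 (0.0367 and 0.0416) and in males without KO mouse 21 (0.0461).

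No member responded differently to KO in females and males in the test of that difference. By edgeR's quasi-likelihood test, 0 of 91 members passed (0% of all genes tested passed), 1 had an unadjusted p under 0.05, and DESeq2 also gave 0. The member was Cox8b, whose difference in log2 fold change was 3.18 ± 1.21 (unadjusted p = 0.0126, adjusted p = 0.768).

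Giving back H2A.Z.1 together with Cre was compared with Cre alone. The groups share their KO mice, so the 3 replacement comparisons of a sex are not independent. In females, WT and KQ gave no member that passed by edgeR's quasi-likelihood test, lower or higher (9.17% and 5.36% of all genes were lower and higher for WT, 7.63% and 5.36% for KQ). For both, 6 members had an unadjusted p under 0.05 and DESeq2 called 1. KA females had 3 lower members and none higher (9.62% and 5.63% of all genes). Males had 2 lower and 2 higher with WT (12% and 7.44%), 1 lower and 1 higher with KA (9.94% and 5.86%) and 3 lower and 3 higher with KQ (12.7% and 8.72%). The shares of members, at most 3.30% in a direction, were below those of all genes in each of these comparisons. These counts moved when single mice were left out. WT females had 1 call without WT mouse 20 or KO mouse 34, and KQ females 2 without KQ mouse 17 and 1 without KO mouse 34. KA females had 0 without KO mouse 14 or KA mouse 35 and 1 without KO mouse 13 or KA mouse 36. WT males had 2 without KO mouse 4. KA males had 4 without KO mouse 3, 5 without KO mouse 21 or KA mouse 5, and 1 without KO mouse 4 or 42 or KA mouse 25, 26 or 43. KQ males had 1 without KO mouse 4 and 3 without KQ mouse 28. The median log2 fold change of the members was 0.05, 0.03 and 0.07 in WT, KA and KQ females and 0.11, 0.21 and 0.02 in males. The male values leaned on KO mouse 42, without which they were -0.015, 0.093 and -0.10. In females they ran from 0.013 (without KO mouse 13) to 0.091 (without WT mouse 20) for WT, from -0.054 (without KA mouse 35) to 0.068 (without KA mouse 16) for KA and from -0.032 (without KQ mouse 37) to 0.12 (without KQ mouse 38) for KQ.

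These comparisons also share their KO mice with the comparison of KO and Myc, so a KO mouse that was low or high by itself moves both, in opposite directions. Ndufs1 was higher with WT in males, at 154, 161, 144, 158 and 161 CPM against 122 to 139 CPM in KO (0.25 ± 0.07, adjusted p = 0.0115), and with KQ, at 155, 152, 159, 151 and 158 CPM (0.25 ± 0.07, adjusted p = 0.0118). Neither group overlapped KO, and both calls ended without KO mouse 4 (adjusted p = 0.0594 and 0.0636). Uqcrc2 rose with WT (0.24 ± 0.08, adjusted p = 0.0430), Ndufv3, an accessory subunit of the complex I matrix arm, with KA (0.28 ± 0.10, adjusted p = 0.0473), and Ndufb3 (0.21 ± 0.08, adjusted p = 0.0441) and Sdha (0.19 ± 0.07, adjusted p = 0.0407) with KQ, all in males. The calls of Uqcrc2, Ndufv3, Ndufb3 and Sdha ended without KO mouse 4 (adjusted p = 0.148, 0.0951, 0.154 and 0.226) and without several other single mice: KO 3 and 42 and WT 9, 10, 30 and 46 for Uqcrc2, KO 42 and KA 25, 26 and 43 for Ndufv3, KO 42 and KQ 28 and 45 for Ndufb3, and KQ 8, 28, 44 and 45 for Sdha.

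Among the members higher in KO, Cox6a2 was lower with each replacement in males. It was at 3.88, 2.48, 3.38, 3.36 and 4.87 CPM with WT (-0.93 ± 0.23, adjusted p = 0.00291), at 3.96, 3.62, 3.28 and 3.80 CPM with KA (-0.90 ± 0.24, adjusted p = 0.00819) and at 3.36, 4.73, 4.40, 4.27 and 3.92 CPM with KQ (-0.72 ± 0.23, adjusted p = 0.0192), all below the 5.12 to 8.65 CPM of KO males. Of these male calls, the KQ call ended when KO mouse 3 or 4 was left out (adjusted p = 0.0917 and 0.0969), and those of WT and KA did not end without any single mouse. In females Cox6a2 was lower with KA (-0.77 ± 0.24, adjusted p = 0.0268), with overlap, and that call ended without KO mouse 13 or 14 or KA mouse 35 or 36 (0.0758 to 0.150). Atp5g2 was lower with WT (-0.44 ± 0.11, adjusted p = 0.00224) at 8.69 to 12.2 CPM and with KQ (-0.44 ± 0.11, adjusted p = 0.00206) at 9.42 to 12.7 CPM in males, where KO males were at 14.0 to 16.2 CPM. Both calls held under every alternative. Cox6b2 was lower with KA in females, at 2.87, 1.87, 1.15 and 2.35 CPM (-1.27 ± 0.36, adjusted p = 0.0147), all below the KO females, and with KQ in males, at 1.22, 1.60, 1.60, 1.59 and 2.46 CPM (-1.02 ± 0.34, adjusted p = 0.0298). The first call ended without KO mouse 14 or KA mouse 35 (0.0595 and 0.0725) and the second without KO mouse 3 or 4 or KQ mouse 8, 27, 28 or 44 (0.0531 to 0.282). Cox8b was lower with KA in females (-2.09 ± 0.74, adjusted p = 0.0494), and the call ended without any of KO mice 13, 14 and 33 and KA mice 15, 16, 35 and 36 (0.0504 to 0.377). With WT in females, Cox6b2 was at 3.43, 4.42, 2.24 and 1.07 CPM and did not pass.

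Set against Myc controls, the number of members called in mice with replacement, all of them lower, was 2 in WT females (2.20%, against 3.52% of all genes tested called lower), 1 in WT males (1.10%, against 1.68%), 1 in KA females (1.10%, against 3.23%), 1 in KA males (1.10%, against 2.74%), 0 in KQ females (against 2.08%) and 1 in KQ males (1.10%, against 1.65%). Each share rested on 2 members at most. None was called higher, where the shares of all genes were 5.87% and 3.66% for WT females and males, 4.42% and 5.15% for KA and 3.59% and 3.48% for KQ. In KQ females 7 members had an unadjusted p under 0.05 in edgeR, and DESeq2 called 1. The members were Ndufb3 (-0.28 ± 0.09, adjusted p = 0.0414) and Ndufs1 (-0.26 ± 0.08, adjusted p = 0.0406) in WT females, Ndufb3 in WT males (-0.27 ± 0.08, adjusted p = 0.0285), Ndufs8 in KA females (-0.46 ± 0.13, adjusted p = 0.0197), Ndufs1 in KA males (-0.27 ± 0.08, adjusted p = 0.0228) and Cox8a in KQ males (-0.47 ± 0.14, adjusted p = 0.0462). KA males had Ndufs1 at 128, 151, 143 and 144 CPM, against 166 to 178 CPM in Myc males. Each of these calls ended when any of several single mice was left out: Myc 31 for those of WT and KA females, at adjusted p = 0.213, 0.297 and 0.243, Myc 22 for those of males, at 0.161, 0.0642 and 0.188. Leaving out others also ended them: WT 19, 20 and 39 and Myc 32 for both in WT females, with WT 40 and Myc 11 for Ndufb3; WT 9, 10 and 29 and Myc 41 in WT males; KA 15 and 16 in KA females; KA 5 and Myc 23 in KA males; and Myc 1, 23 and 41 and KQ 8, 27 and 44 in KQ males. The counts rose to 3 without WT mouse 40 in WT females or WT mouse 46 in WT males, to 2 without Myc mouse 11 or KA mouse 35 in KA females, to 1 without KQ mouse 37 in KQ females and to 6 without KQ mouse 45 in KQ males. The median log2 fold change of the members was -0.16, -0.17 and -0.13 in WT, KA and KQ females, and -0.08, 0.04 and -0.14 in males. Without Myc mouse 31 the female values were -0.032, -0.040 and -0.0030, and without Myc mouse 22 the male values were 0.0055, 0.13 and -0.066.

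KA and KQ did not separate. By edgeR's quasi-likelihood test 0 of 91 members passed in females and 0 in males (0% of all genes tested in each sex), DESeq2 also gave 0 in both, and 0 and 9 members had an unadjusted p under 0.05. In males 82 of 91 members were higher in KA than in KQ, with a median log2 fold change of 0.21 (0.00 over all genes), and in females 24 of 91, with a median of -0.04. The male median was 0.13 without KQ mouse 44 and 0.33 without KQ mouse 45, and the female median ran from -0.11 without KA mouse 35 to 0.058 without KQ mouse 37.

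Levels of the members moved together between libraries of a group. The mean log2 level of the 91 members, relative to the Myc mean of the sex, ran from -0.24 to 0.23 among Myc females and -0.16 to 0.24 among Myc males. The lowest values were those of KO mouse 42, given above, and of KQ mouse 44, at -0.49. The 13 subunits encoded by mitochondrial DNA were not low in these mice. They summed to 77305 to 146839 CPM in KO males, with KO mouse 42 the highest, and to 164405 CPM in KQ mouse 44, against 103687 to 120233 CPM in Myc males. In KO females they summed to 80737 to 105624 CPM against 115013 to 127515 CPM in Myc females, without overlap. In females 3 of 13 were called lower and in males 0, against 16.5% and 14.4% of all genes tested. Mouse 42 also had the smallest library, and the part of library composition in the results was not tested.

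**Figure D4:**
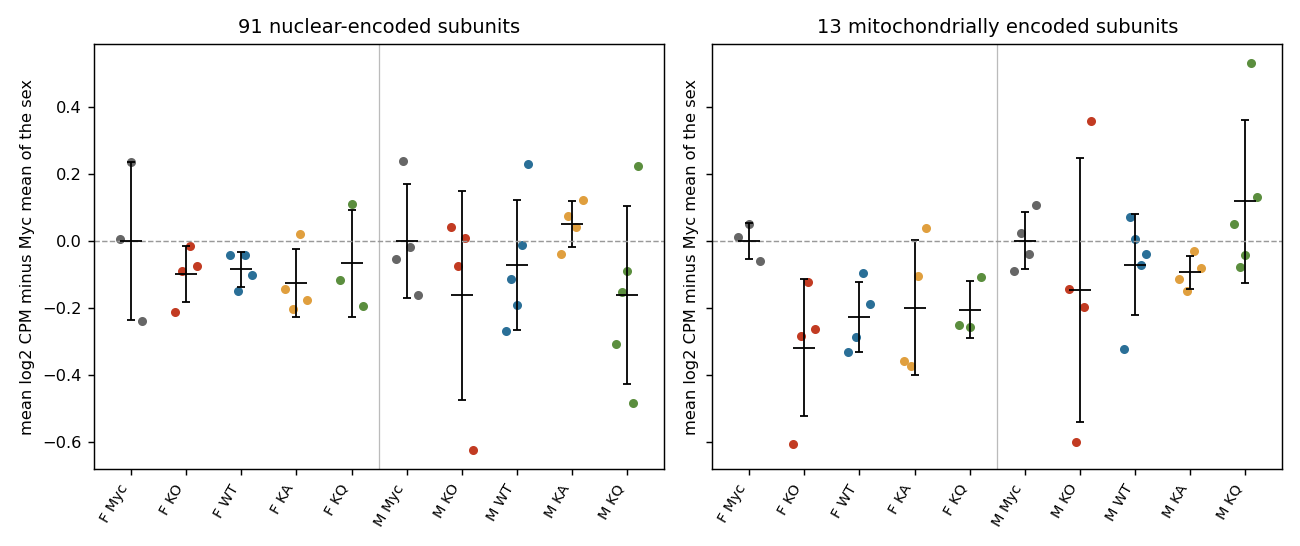
Mean log2 CPM per mouse after subtracting the mean of Myc controls of that sex (vertical axis), for the 91 nuclear-encoded members (left) and the 13 subunits encoded by mitochondrial DNA (right), by sex (F, M) and virus (horizontal axis). Dots are mice, long dashes are means and bars are SDs. The mouse at -0.62 in the left panel and 0.36 in the right panel is KO male 42.

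Other genes of mitochondrial metabolism were counted in the same fit between KO and Myc. Of 47 tested assembly factors of the respiratory chain, 20 were lower and 0 higher in females and 18 and 0 in males, with a median log2 fold change of -0.25 and -0.23. In the tricarboxylic acid cycle 10 of 16 genes were lower in each sex and 1 higher, among them the isocitrate dehydrogenase subunits Idh3a (-0.58 in females, adjusted p = 1.23e-05; -0.45 in males, adjusted p = 0.000127), Idh3b and Idh3g. Of 78 genes of the mitochondrial ribosome 21 were lower and 3 higher in females, and 16 and 1 in males. Of 17 glycolysis genes 6 were lower in females and 3 in males, and 1, the hexokinase Hk2, was higher in both (1.83 and 2.31, adjusted p = 2.31e-06 and 3.92e-09). Of 13 regulators of mitochondrial biogenesis 2 were lower and 1 higher in females, and 4 and 0 in males. The coactivator Ppargc1a was at -0.27 (adjusted p = 0.0609) and -0.11 (adjusted p = 0.483). The background share of lower calls was 16.5% in females and 14.4% in males, as given above. These lists were not refitted without single mice.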

How the data were processed

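The authors sequenced hippocampal RNA as paired reads, aligned them with Rsubread to GRCm39 and counted reads per gene with featureCounts. Per the labels, FastQC 0.11.9 and DESeq2 1.38.3 were also used, and the strand setting is not given in the sources used here. The raw counts deposited were used, and the normalised table was not. Genes with at least 20 counts over 40 mice were kept. edgeR 4.0.16 was run in R 4.3.3 with TMM normalisation and its robust quasi-likelihood test in 1 fit of 10 groups of sex and virus. P-values were adjusted by Benjamini-Hochberg over all 28449 genes, and called means adjusted p under 0.05 at any fold. Errors of log2 fold changes are approximate SEs. Each is the absolute log2 fold change divided by the square root of the F statistic of that test. CPM use TMM library sizes. Each comparison also ran under DESeq2 1.42.0, its size factors, filterByExpr, no filter, only the groups compared, the range of the sample number as covariate, no mice above 1000 CPM of Ttr, and without each mouse. The pipeline was tested on simulated data.

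The members and gene lists were chosen with earlier results of these data known. Named were the 3 members of complexes I, III, IV and V with the smallest p between KO and Myc in each sex, all of complex II, Cycs, all tissue-specific isoforms, the extremes of each comparison, and members called where 5 or fewer were. A few other called members (Ndufa8, Ndufb5, Ndufb8 and Cox6c) were named after their values were seen. Transcript lengths came from GENCODE vM39, in which 82 of 92 symbols were matched (72 by symbol, 10 by the start of a transcript). Nothing in the labels says whether mice came from separate litters, and p-values measure the spread between the mice. The depth of 24342921 to 45982772 counts per mouse leaves the lowest isoforms with few reads. No 2 libraries of a group agreed within sampling noise. Myc female 32 stood furthest from its group. Its chi-square per degree of freedom was 286 against mouse 11 and 205 against mouse 31, which were at 25.5 from each other. This mouse also had the lowest TMM factor of all mice (0.878).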

Additional observations from a re-analysis of the deposited data

Results flagged for a closer look

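Per-mouse values were checked for mice that stood far from the rest of their group in 187 sets of 4 or 5 mice (39 named genes and the summed CPM of each complex), in which chance marks about 1 in 20. There were 8 such values, no more than that rate gives, and none passed after adjustment for the number of sets. KO male 42 was low in Sdhd (40.3 CPM, the next at 76.0), Atp5g3 (65.2 CPM, the next at 95.6) and Atp5e (10.9 CPM, the next at 29.3). WT female 20 was low in the summed CPM of complex I (2080, the next at 2297) and complex III (926, the next at 1008) and high in Cox8b (2.00 CPM, the next at 0.388), and this mouse had 4104 CPM of Ttr. KO female 13 was low in Cox6a1 (111 CPM, the next at 133), and Myc male 22 was high in Cox7a2l (142 CPM, the next at 117).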

How the results depend on the processing

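No paired analysis was possible because mouse numbers differ between all groups. Among tests of the sex difference and of KA against KQ, 0 members were called under every alternative run. With the fit limited to the groups compared, the number of members called between KO and Myc was 11 in females and 9 in males; against KO it was 1 for WT females, 1 for KA females and 2 for KQ males, and against Myc 2 for WT males. Without mice above 1000 CPM of Ttr it was 9 for KO against Myc in females, 1 for KA against KO in each sex, 0 for WT and 2 for KA females against Myc. With the number range as covariate it was 1 for WT females, 5 for KA females and 1 for KA males against KO, and 2 for KA and 2 for KQ females against Myc. DESeq2 gave 1 for WT and 1 for KQ females against KO, and 4, 2 and 1 for WT, KA and KQ females against Myc. filterByExpr gave 2 for KA and 1 for KQ females against Myc, no filter 0 for WT females against Myc, and DESeq2 size factors 0 for KQ males against Myc. The cause was not tested.

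Without single mice the members called between KO and Myc numbered 7 to 26 in females and 7 to 17 in males. Against KO they numbered 0 to 1, 0 to 3 and 0 to 2 in WT, KA and KQ females and 2 to 5, 1 to 5 and 1 to 7 in males, and against Myc 0 to 3, 0 to 2 and 0 to 1 in females and 0 to 3, 0 to 1 and 0 to 6 in males. No called member changed direction. Members that did not pass between KO and Myc and changed sign without single mice were Atp5e (-0.29 to 0.22 in females, -0.30 to 0.086 in males), Cox7a2l (-0.020 to 0.075 in females), Cox7b2 (-0.017 to 0.93 and -0.64 to 0.13), Cox8b (-0.77 to 0.30 in males), Ndufa11b (-0.20 to 0.089 and -0.49 to 0.24), Ndufb4b (-0.22 to 0.028 in males), Sdhb (-0.20 to 0.13 and -0.061 to 0.13) and Sdhd (-0.12 to 0.13 and -0.048 to 0.22). Ndufa11b was also at 0.083 in males with the number range as covariate. Low read numbers limit Cox8b, Cox7b2 and Ndufa11b.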
